A study of Mus musculus with 4 samples.

Results

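The 7 genes described here encode subunits of voltage-gated calcium channels and were chosen by name from the 32286 genes counted. They are the L-type pore genes Cacna1c and Cacna1d, the T-type pore genes Cacna1g and Cacna1h, the beta subunit genes Cacnb2 and Cacnb3, and the alpha-2-delta subunit gene Cacna2d1. Their transcripts were followed across cell classes and across kinds of muscle cell in 3 single-cell RNA libraries of vessels from behind the mouse knee. Every mouse was an adult from a cross of WT1GFPCre, which carries an EGFP and Cre fusion at the Wt1 locus, with the Ai9-tdT reporter, and Evans blue was injected into the footpad to make lymphatics visible, per the labels' protocols. The first 2 libraries held cells of popliteal lymphatic vessels (PLV), each from its own pool of 2 mice, digested for 30 min with collagenase I, Dispase II, DNase and Liberase. The remaining library held PLV cells together with cells labelled BV (blood vessel) from a pool of 2 mice, digested for 60 min with collagenase I and Dispase II, and is called the mixed library. Its hashtag antibodies did not separate the vessels, so it counts as 1 sample of both. Each library is a pool, so the spread between animals inside it cannot be seen.

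Voltage-gated calcium channels open when the membrane depolarises and let calcium into the cell. In muscle of lymphatic vessels and of blood vessels the L-type channel carries most of the calcium that drives contraction, and T-type channels open at more negative voltages. The pore subunit works with a beta subunit inside the cell, which aids trafficking to the membrane and tunes gating, and with an alpha-2-delta subunit on the outer face, which raises the number of channels at the surface.

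By the GENCODE annotation of the GRCm38 mouse genome, Cacna1c (ENSMUSG00000051331) lies on the minus strand at chr6:118587240-119196418, and Cacna1d (ENSMUSG00000015968) on the minus strand at chr14:30039939-30491455. Cacna1g (ENSMUSG00000020866) lies on the minus strand at chr11:94408391-94474198 and Cacna1h (ENSMUSG00000024112) on the minus strand at chr17:25374285-25433783. Cacnb2 (ENSMUSG00000057914) is on the plus strand at chr2:14603088-14987908, Cacnb3 (ENSMUSG00000003352) on the plus strand at chr15:98630840-98644529, and Cacna2d1 (ENSMUSG00000040118) on the plus strand at chr5:15934691-16374511. Of these, Cacna1c, Cacna1d, Cacna1h, Cacnb2 and Cacna2d1 overlap counted genes on the opposite strand (Dcp1b, Chdh, Dcp1a, Tpsg1, Gm10848, Gm13269 and Gm43000). Whether the counting used strand is not given in the sources used here, so reads of such partners cannot be told apart from those of the channel genes.

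Promoters of 300 bases were taken from a RefSeq table (GRCm38.p6) that matched 5 of the 7 genes and held 10 promoters for them; Cacna1g and Cacna1h were not matched. Below are 2 promoters of Cacna1c, which is known to start from alternative first exons in heart and in smooth muscle, and the promoter of Cacna2d1, shown as a member with 1 promoter listed. Capitals mark E boxes (CANNTG, a motif that reads alike on both strands). The first Cacna1c promoter lies at chr6:119196360-119196659, the second at chr6:119108446-119108745 within the gene, and that of Cacna2d1 at chr5:15934441-15934740, each written 5′ to 3′ on the strand of its gene.
Cacna1c promoter 1: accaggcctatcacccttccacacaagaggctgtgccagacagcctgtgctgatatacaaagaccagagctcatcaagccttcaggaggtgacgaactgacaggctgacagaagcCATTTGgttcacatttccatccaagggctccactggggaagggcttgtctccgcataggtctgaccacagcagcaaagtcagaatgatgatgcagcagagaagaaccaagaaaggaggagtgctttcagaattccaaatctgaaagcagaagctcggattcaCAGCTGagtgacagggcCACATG
Cacna1c promoter 2: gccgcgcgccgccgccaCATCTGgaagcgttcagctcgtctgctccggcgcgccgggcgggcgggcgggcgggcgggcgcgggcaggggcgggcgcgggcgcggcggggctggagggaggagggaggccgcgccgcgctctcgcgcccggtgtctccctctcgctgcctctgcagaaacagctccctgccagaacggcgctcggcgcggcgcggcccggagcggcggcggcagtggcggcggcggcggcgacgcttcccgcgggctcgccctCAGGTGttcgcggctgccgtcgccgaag
Cacna2d1 promoter: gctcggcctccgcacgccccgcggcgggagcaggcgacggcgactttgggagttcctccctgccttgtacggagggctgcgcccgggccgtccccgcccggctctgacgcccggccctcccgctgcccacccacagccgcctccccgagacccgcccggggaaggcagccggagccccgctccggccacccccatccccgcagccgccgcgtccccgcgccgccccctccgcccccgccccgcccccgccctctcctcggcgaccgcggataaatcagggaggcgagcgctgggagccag
The first Cacna1c promoter was 51.3% G and C with 3 E boxes, the second 81.3% with 2 E boxes, and the Cacna2d1 promoter 80.0% with 0 E boxes. GC boxes (GGGCGG on either strand, where matches may overlap one another) numbered 0, 6 and 7 in these sequences. An E box is present in 72.3% and a GC box in 35.7% of the 32851 promoters of this length in the table. Whether the promoters of these genes differ from those shares was not tested. The CArG box, by name the motif of serum response factor, was searched on both strands and matched none of the 10 promoters against 1.63% of all promoters. The element CATTCC matched none of the 10 against 14.7% of all promoters, and TATAAA matched only the first Cacna1d promoter against 13.6%. These are letter matches and not measured sites, and counts made near the 3′ end of a transcript do not tell the promoters apart.

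After filtering the libraries held 516 to 1909 cells with medians of 3372 to 6162 unique molecular identifiers (UMIs, 1 per counted RNA molecule), and no cell barcode was shared between any pair. Clusters were named from marker genes, and 426 cells of PLV replicate 1, 104 of PLV replicate 2 and 333 of the mixed library were muscle-like. All 10 smooth muscle markers were detected in each muscle-like class, at a summed 36730, 37090 and 42932 counts per 1000000 UMIs (CPM), while 5, 2 and 6 of 8 skeletal muscle markers were detected at a summed 11.2, 13.3 and 17.1 CPM, with Pax7 and Myod1 at 0 in all 3. Muscle markers were also counted in other classes, at a summed 7963, 11788 and 9470 CPM in pericyte-like cells and 907 to 1623 CPM in blood endothelial-like cells. Levels below are CPM of the UMIs summed over the cells of a class, given for PLV replicate 1, then PLV replicate 2, then the mixed library unless said otherwise. They count transcripts near the 3′ end and are not compared between genes.

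The L-type pore gene Cacna1c was counted mainly in muscle-like and pericyte-like cells. Muscle-like cells held 166, 196 and 117 CPM (160 ± 40.3, SD, n = 3 libraries), from 371, 148 and 300 UMIs. Pericyte-like cells held 157, 105 and 96.0 CPM, blood endothelial-like cells 19.4, 11.1 and 14.0 CPM, and fibroblast-like cells 3.81, 2.22 and 8.04 CPM. Muscle-like and pericyte-like ranges overlapped, and both lay above the 4 classes that follow in every library. Lymphatic endothelial-like cells held 6.13 CPM in PLV replicate 1 and 0 in the other 2 libraries, and Schwann-like cells held 0 in all 3. Within PLV replicate 1 muscle-like cells were 43.7-fold above fibroblast-like cells, and within the mixed library 14.5-fold. Blood endothelial-like cells also held pericyte markers at a summed 2053, 997 and 1226 CPM, with Rgs5 at 1274, 531 and 576 CPM, and their part in the Cacna1c level was not tested. The lymphatic endothelial-like cells of PLV replicate 1 also held the smooth muscle actin gene Acta2 at 447 CPM against 4.28 and 8.45 CPM in the other libraries.

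Cacna1d, the L-type pore gene better known from pacemaking and secretory cells, was near the counting limit in muscle. Muscle-like cells held 7, 2 and 3 UMIs, or 3.14, 2.65 and 1.17 CPM (2.32 ± 1.03, SD, n = 3). Fibroblast-like cells held 1.63, 13.3 and 0.473 CPM and Schwann-like cells 0, 0 and 16.4 CPM, so every neighbouring pair in the order of its mean levels overlapped. It was too low for the test across classes.

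The T-type pore genes differed widely between libraries. Cacna1h was highest in muscle-like cells of all 3 libraries, while Cacna1g was highest there in PLV replicate 1 only. Cacna1g stood at 63.2, 30.5 and 4.66 CPM in muscle-like cells (141, 23 and 12 UMIs; 32.8 ± 29.3 CPM, SD, n = 3), highest in PLV replicate 1 and lowest in the mixed library. Pericyte-like cells held 0, 65.4 and 0 CPM, where the value of PLV replicate 2 came from 10 UMIs in 4 of 34 cells. Pln, a marker of a muscle kind described further on, stood at 0, 177 and 0 CPM in the same pericyte-like cells, and Sorbs2 at 224, 379 and 146 CPM, and the part of muscle transcripts in this value was not tested. Fibroblast-like cells held 9.80, 0 and 9.94 CPM, from 18, 0 and 21 UMIs. Lymphatic endothelial-like and Schwann-like cells held none. Cacna1h stood at 64.1, 55.8 and 15.2 CPM in muscle-like cells (143, 42 and 39 UMIs; 45.0 ± 26.2 CPM, SD, n = 3). It was at 0 in fibroblast-like, blood endothelial-like and lymphatic endothelial-like cells of all 3 libraries. With a floor of 3 UMIs in the fibroblast-like sum of each library, muscle-like cells were at least 39.3-fold, 8.39-fold and 10.7-fold higher. Pericyte-like cells held 0, 19.6 and 0 CPM of Cacna1h, and Schwann-like cells 1 UMI in all.

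The beta subunit genes had different patterns. Cacnb2, the beta subunit gene best known from heart muscle, stood at 60.1, 92.9 and 47.0 CPM in muscle-like cells (66.7 ± 23.6, SD, n = 3). Its next level was 28.1, 13.1 and 19.2 CPM in pericyte-like cells, a range below and apart from that of muscle-like cells, and the other 4 classes compared were at or below 3.24 CPM. Cacnb3 stood at 35.9, 42.5 and 46.3 CPM in muscle-like cells (41.5 ± 5.26, SD, n = 3), at 44.9, 45.8 and 57.6 CPM in pericyte-like cells and at 21.1, 25.8 and 82.1 CPM in Schwann-like cells, and these 3 ranges overlapped. Fibroblast-like cells held 8.71, 6.65 and 14.7 CPM, blood endothelial-like cells 5.83, 1.58 and 4.44 CPM, and lymphatic endothelial-like cells 1.75, 1.07 and 1.21 CPM.

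Cacna2d1, whose product is the binding site of gabapentin-type drugs, was counted in all 6 classes of every library. Muscle-like cells held 224, 215 and 196 CPM (212 ± 14.2, SD, n = 3). Pericyte-like cells held 163, 170 and 88.4 CPM and fibroblast-like cells 120, 73.1 and 57.2 CPM, with overlapping ranges. Lymphatic endothelial-like cells held 35.4, 34.2 and 16.9 CPM, Schwann-like cells 25.4, 6.44 and 24.6 CPM and blood endothelial-like cells 11.7, 9.48 and 12.1 CPM. The muscle-like range lay apart from and above the pericyte-like range, and the fibroblast-like range apart from and above the lymphatic endothelial-like range.

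**Figure D1:**
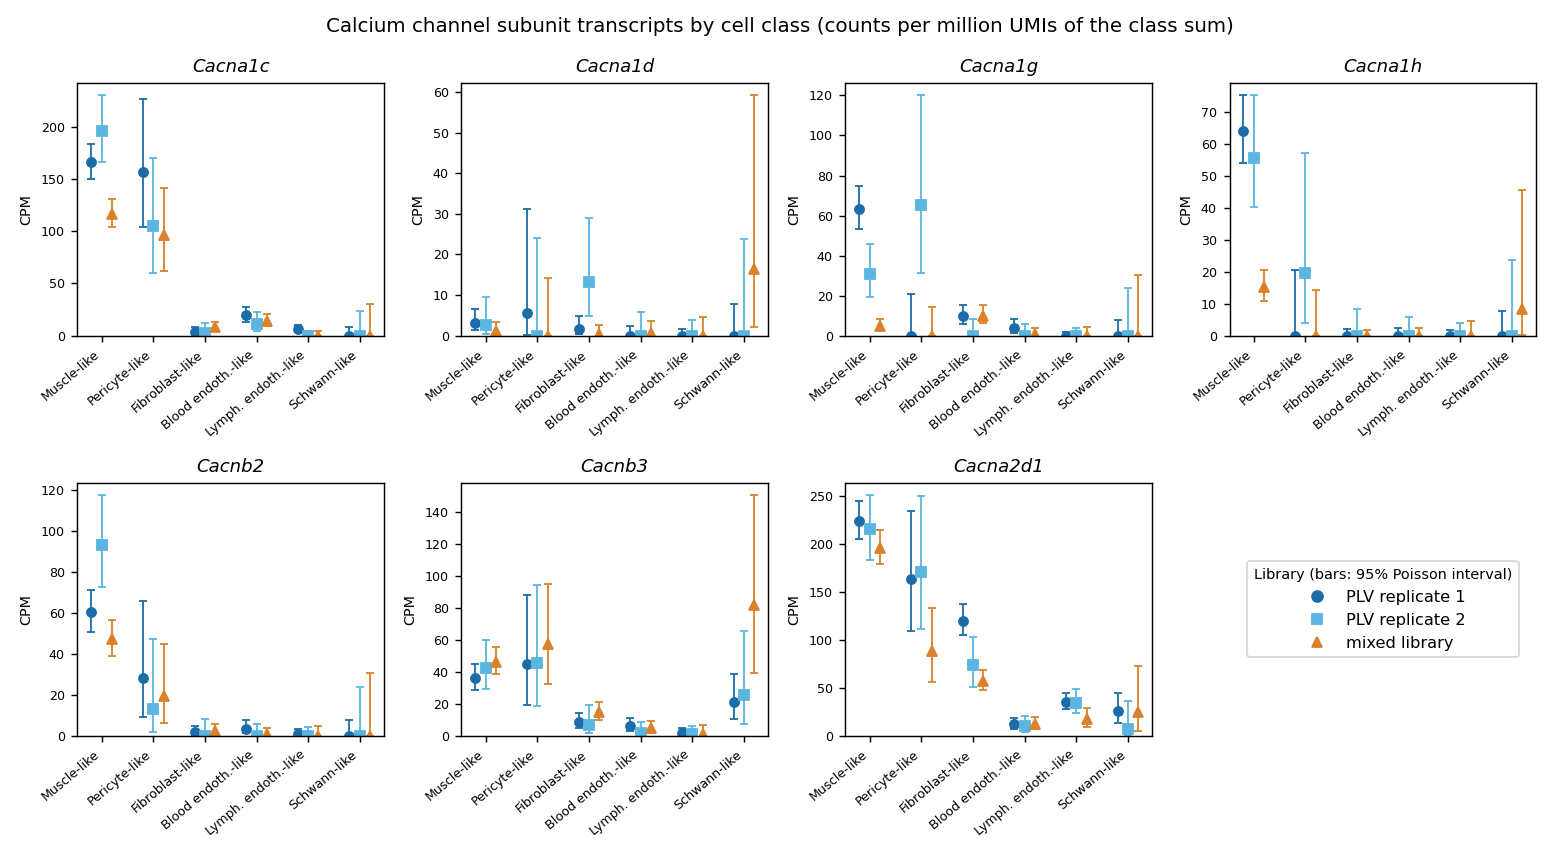
Levels of the 7 genes in CPM (vertical axes, each on its own scale from 0) in 6 cell classes, with 1 point per library and bars for 95% exact Poisson intervals of the UMI count. Cacna1c is high in muscle-like and pericyte-like cells, Cacna1h is near 0 outside muscle-like cells except for PLV replicate 2 pericyte-like and mixed Schwann-like cells, and the points of Cacnb3 overlap among muscle-like, pericyte-like and Schwann-like cells.

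Muscle-like sums were tested against each other class with edgeR's quasi-likelihood test, with the library as a block and Benjamini-Hochberg adjustment over 10497 genes. Against blood endothelial-like cells 6 of the 6 genes tested were called higher in muscle-like cells (background of all genes called higher 20.5%), and against lymphatic endothelial-like cells also 6 of 6 (background 21.7%). Against fibroblast-like cells 5 of 6 were called (background 17.3%), against Schwann-like cells 5 of 6 (background 19%), and against pericyte-like cells 3 of 6 (background 6.92%). In none of these was a member called lower in muscle-like cells, beside backgrounds of 19.8%, 20.6%, 21.5%, 15.4% and 5.22% of all genes called lower in the same order. Cacna1d was left out of these counts because its low counts did not pass the filter, and a gene high only in muscle passed the filter through muscle.

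Cacna1c was higher in muscle-like than in fibroblast-like cells by a log2 difference of 4.52 (SE 0.44, edgeR adjusted p = 2.09e-07), than in blood endothelial-like cells by 3.39 (SE 0.38, edgeR adjusted p = 1.00e-06) and than in lymphatic endothelial-like cells by 5.67 (SE 0.48, edgeR adjusted p = 2.50e-08), in 3 of 3 libraries each. The last value grew to 9.99 without PLV replicate 1, since the other libraries held 0 UMIs in that class. Against pericyte-like cells the difference of 0.61 (SE 0.37) did not pass (edgeR adjusted p = 0.355), and it was positive in 3 of 3 libraries. Cacnb2 was higher in muscle-like than in fibroblast-like cells by 4.76 (SE 0.47, edgeR adjusted p = 2.85e-07) and than in pericyte-like cells by 1.81 (SE 0.48, edgeR adjusted p = 0.0181).

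Cacna2d1 was higher in muscle-like cells than in each of the other classes, but by amounts that ran from 0.85 against pericyte-like cells (SE 0.24, edgeR adjusted p = 0.0237) and 1.15 against fibroblast-like cells (SE 0.21, edgeR adjusted p = 0.000173) to 4.26 against blood endothelial-like cells (SE 0.26, edgeR adjusted p = 2.55e-10). In single libraries muscle-like cells were 1.37-fold, 1.26-fold and 2.22-fold above pericyte-like cells. Cacnb3 was higher than in fibroblast-like cells by 1.70 (SE 0.30, edgeR adjusted p = 0.000126), while the difference was -0.05 (SE 0.34) against pericyte-like cells and 0.34 (SE 0.36) against Schwann-like cells and passed in neither (edgeR adjusted p = 0.972 and 0.519). The sign of each of these 2 small differences turned under an alternative: 0.014 against pericyte-like cells with no filter on low counts, and -0.097 against Schwann-like cells without PLV replicate 1.

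Cacna1h was higher in muscle-like than in fibroblast-like cells (edgeR adjusted p = 1.24e-05) and in pericyte-like cells (log2 difference 3.16, SE 0.83, edgeR adjusted p = 0.0238). Cacna1g was higher than in blood endothelial-like cells by 3.91 (SE 1.03, edgeR adjusted p = 0.00623). Against fibroblast-like cells its difference of 1.25 (SE 0.81) did not pass (edgeR adjusted p = 0.253), but without the mixed library it was 2.67 and was called (edgeR adjusted p = 0.00277). Against pericyte-like cells Cacna1g stood at 0.81 (SE 1.09, edgeR adjusted p = 0.739) and turned to -0.68 without PLV replicate 1. DESeq2, the second tool, called Cacna1h against none of the 5 classes (DESeq2 adjusted p from 0.186 to 0.736) and Cacna1g against neither blood endothelial-like nor Schwann-like cells (DESeq2 adjusted p = 0.267 and 0.223).

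The calls against pericyte-like cells depended on single libraries. None of the 3 held without PLV replicate 1, Cacna1h alone held without PLV replicate 2, Cacna2d1 was lost without the mixed library (edgeR adjusted p = 0.174), and 0 held with clusters at Leiden resolution 2. Calls of all genes higher in muscle-like cells fell too, from 726 of 10497 to 328 of 10065 without PLV replicate 1. They were 383 of 11907 without PLV replicate 2, 589 of 10334 without the mixed library and 458 of 10464 at Leiden resolution 2. Without PLV replicate 1 the calls of Cacna1g against blood endothelial-like and Schwann-like cells and of Cacna1h against Schwann-like cells were lost as well (edgeR adjusted p = 0.0590, 0.333 and 0.0935). Pericyte-like cells numbered 39, 34 and 41, and they held muscle markers as given above. Muscle-like cells held pericyte markers at a summed 2394, 1836 and 1395 CPM against 13349, 9800 and 6972 CPM in pericyte-like cells. The part of such shared transcripts in the pericyte-like comparison was not tested. In the other 4 comparisons, leaving out the 169, 32 and 82 non-muscle cells with at least 3 UMIs of Acta2 and Myh11 together changed no call of a member.

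The muscle-like clusters fell into kinds labelled by marker pairs. Ano1 encodes the calcium-activated chloride channel known from lymphatic pacemaking, and it marked one kind together with Hmcn2. Pln, which encodes phospholamban, the inhibitor of the calcium pump of the sarcoplasmic reticulum, marked another together with Sorbs2. P2rx1, an ATP receptor gene, marked a further kind together with Col12a1, and this kind was found in the mixed library alone. Not every marker was exclusive to its kind. P2rx1 stood at 617 CPM in the P2rx1/Col12a1 kind but also at 186, 193 and 218 CPM in the Pln/Sorbs2 kind. Ano1 stood at 459, 499 and 296 CPM in the Ano1/Hmcn2 kind and at 426, 543 and 288 CPM in pericyte-like cells. The Ano1/Hmcn2 kind had 139, 57 and 199 cells (32.6%, 54.8% and 59.8% of muscle-like cells), the Pln/Sorbs2 kind 287, 47 and 60 (67.4%, 45.2% and 18.0%), and the P2rx1/Col12a1 kind 0, 0 and 74 (22.2% in the mixed library). The 7 genes and the other calcium genes listed here were kept out of the clustering. The kinds were still built from other genes of the same cells, and 30.2% of the 7716 genes tested differed between the first 2 kinds, 15% higher and 15.3% lower in the Ano1/Hmcn2 kind.

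Between these kinds Cacna1c and the T-type pore genes stood in opposite orders. Cacna1c was at 287, 316 and 142 CPM in the Ano1/Hmcn2 kind and at 109, 107 and 79.6 CPM in the Pln/Sorbs2 kind. It was thus 2.63-fold, 2.96-fold and 1.79-fold higher in the Ano1/Hmcn2 kind of each library, and the ranges did not overlap. The log2 difference was 1.14 (SE 0.18, edgeR adjusted p = 3.77e-05). Cacna1d held 0, 0 and 2 UMIs in the Ano1/Hmcn2 kind and 7, 2 and 1 in the Pln/Sorbs2 kind, too few to test; 2 of 3 libraries had UMIs of it in the Pln/Sorbs2 kind alone.

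Cacna1g was at 0 in the Ano1/Hmcn2 kind of all 3 libraries and at 93.2, 53.4 and 28.1 CPM (141, 23 and 12 UMIs) in the Pln/Sorbs2 kind. All UMIs of this gene in muscle-like cells therefore came from the Pln/Sorbs2 kind. With a floor of 3 UMIs in the Ano1/Hmcn2 sum of each library, Cacna1g was at least 22.3-fold, 5.73-fold and 12.4-fold higher in the Pln/Sorbs2 kind (edgeR adjusted p = 1.74e-08). Cacna1h was at 1.39 CPM (1 UMI), 0 and 0 in the Ano1/Hmcn2 kind and at 93.9, 97.5 and 58.6 CPM (142, 42 and 25 UMIs) in the Pln/Sorbs2 kind. With the same floor it was at least 10.5-fold higher in PLV replicate 2 and at least 25.8-fold higher in the mixed library (edgeR adjusted p = 7.41e-10 over all 3). Both genes passed the count filter through the Pln/Sorbs2 kind alone, so the UMI counts, and not these p-values, carry the difference.

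The auxiliary subunit genes also split. Cacnb3 was at 71.0, 80.7 and 58.4 CPM in the Ano1/Hmcn2 kind against 19.2, 13.9 and 18.7 CPM in the Pln/Sorbs2 kind, which is 3.70-fold, 5.79-fold and 3.11-fold with no overlap. Its log2 difference was 1.80 (SE 0.27, edgeR adjusted p = 2.24e-05). Cacna2d1 was at 334, 304 and 274 CPM against 171, 149 and 117 CPM, 1.95-fold, 2.05-fold and 2.34-fold, with a log2 difference of 0.91 (SE 0.17, edgeR adjusted p = 0.000218). Cacnb2 went the other way, at 39.0, 90.0 and 44.7 CPM in the Ano1/Hmcn2 kind against 70.1, 95.1 and 89.0 CPM in the Pln/Sorbs2 kind. The ranges of Cacnb2 overlapped, it was lower in the Ano1/Hmcn2 kind of 3 of 3 libraries, and the log2 difference was -0.82 (SE 0.22, edgeR adjusted p = 0.00583). This Cacnb2 call was lost with DESeq2 (DESeq2 adjusted p = 0.175) and without PLV replicate 1 (edgeR adjusted p = 0.170).

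In all, 3 of the 6 genes tested were higher and 3 lower in the Ano1/Hmcn2 kind, beside 15% and 15.3% of all genes, and Cacna1g and Cacna1h passed the count filter through the Pln/Sorbs2 kind alone. The median log2 difference of the 6 was 0.05 beside -0.00 for all genes tested. The pericyte gene Rgs5 stood at 363, 186 and 246 CPM in the Ano1/Hmcn2 kind and at 486, 174 and 682 CPM in the Pln/Sorbs2 kind, against 8451, 5273 and 3834 CPM in pericyte-like cells. Leaving out the 93, 18 and 61 muscle-like cells with at least 3 UMIs of Rgs5 changed no call of a member. Whether the difference between kinds itself varied between PLV and mixed libraries was tested as an interaction over 8619 genes, of which 0.882% were called. It could not be estimated for Cacna1g, which held 0 UMIs in the Ano1/Hmcn2 kind, and Cacna1h held 1 UMI there. Neither edgeR nor DESeq2 called any of the other 4 members, and with edgeR none passed an unadjusted p of 0.05. DESeq2 called almost no gene in this test, so its result says little about the members.

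**Figure D2:**
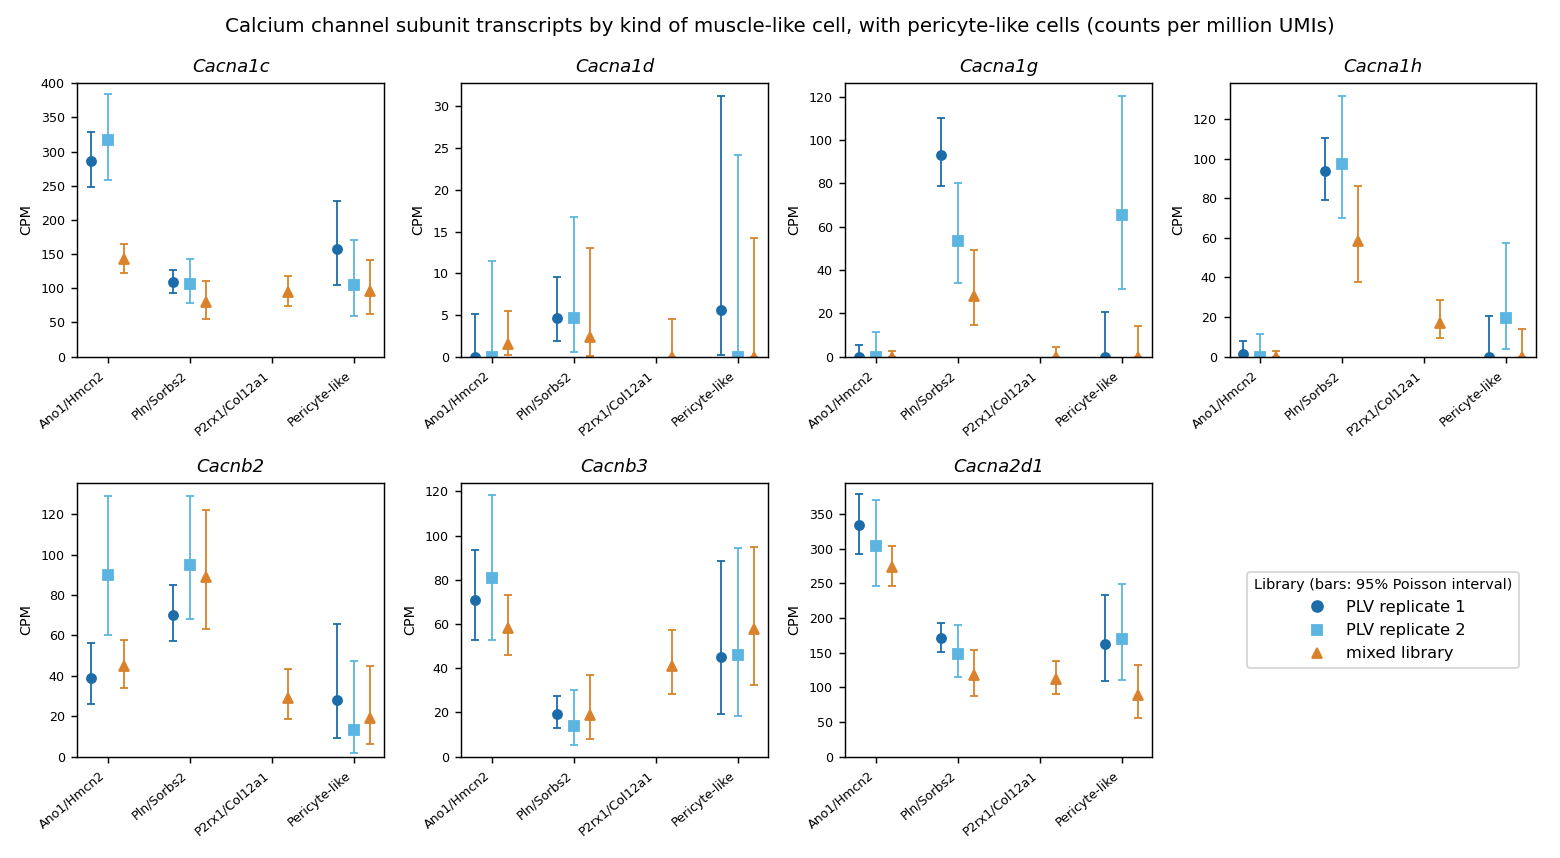
Levels of the 7 genes in CPM (vertical axes, each on its own scale from 0) in the kinds of muscle-like cell and in pericyte-like cells, with 1 point per library and 95% exact Poisson bars. Cacna1c, Cacnb3 and Cacna2d1 lie higher in the Ano1/Hmcn2 kind, while Cacna1g and Cacna1h are at or near 0 there and lie between 28.1 and 97.5 CPM in the Pln/Sorbs2 kind.

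The P2rx1/Col12a1 kind had 1 library, so its values have no test. Cacna1c was at 94.4 CPM in it, beside 142 and 79.6 CPM in the Ano1/Hmcn2 and Pln/Sorbs2 kinds of the same library. Cacna1g was at 0 and Cacna1h at 16.9 CPM (14 UMIs), beside 0 and 58.6 CPM of Cacna1h in the other kinds. Cacnb2 was at 29.0 CPM, Cacnb3 at 41.1 CPM and Cacna2d1 at 113 CPM. In this library Cacnb3 lay between the other kinds (58.4 and 18.7 CPM), and Cacna2d1 lay next to the Pln/Sorbs2 kind (117 CPM).

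The kinds were also compared by the share of cells with a pore transcript. To remove differences in depth each cell was thinned to 1500 UMIs, which left out shallower cells. A T-type UMI (Cacna1g or Cacna1h) was then present in 0 of 135, 0 of 49 and 0 of 189 cells of the Ano1/Hmcn2 kind, with upper 95% Clopper-Pearson limits of 2.70%, 7.25% and 1.93%. Before thinning 1 of 139, 0 of 57 and 0 of 199 cells held such a UMI, so the 0 of the last 2 libraries was fixed beforehand. In the Pln/Sorbs2 kind a T-type UMI was present after thinning in 24.1% (68 of 282), 29.8% (14 of 47) and 15.3% (9 of 59), and in the P2rx1/Col12a1 kind in 1 of 74 cells (1.35%). An L-type UMI (Cacna1c or Cacna1d) was present in 36.3% (49 of 135), 36.7% (18 of 49) and 22.2% (42 of 189) of the Ano1/Hmcn2 kind. The Pln/Sorbs2 kind had 14.5% (41 of 282), 10.6% (5 of 47) and 8.47% (5 of 59), and the P2rx1/Col12a1 kind 8.11% (6 of 74). Between the Ano1/Hmcn2 and Pln/Sorbs2 kinds the shares lay on the same sides as the CPM of Cacna1c and of the T-type genes in every library. Shares and CPM come from the same UMIs, so this is no separate support. The L-type shares of the Pln/Sorbs2 and P2rx1/Col12a1 kinds of the mixed library give no order, since their CPM of Cacna1c went the other way (79.6 and 94.4).

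Without thinning a T-type UMI was present in 0.719%, 0% and 0% of the Ano1/Hmcn2 kind and in 56.8%, 66.0% and 46.7% of the Pln/Sorbs2 kind. An L-type UMI was present in 70.5%, 77.2% and 54.3% against 41.1%, 63.8% and 36.7%. Median depths were 4448, 5909 and 6356 UMIs per cell in the Ano1/Hmcn2 kind and 4918, 8705 and 6675 in the Pln/Sorbs2 kind. Schwann-like cells had none of the 4 pore genes in 142, 38 and 29 thinned cells, at median depths before thinning of 1762.5, 3023.5 and 2598.5 UMIs. Cacna1c and Cacna1g were already at 0 in this class before thinning, so for them the outcome was fixed beforehand. Before thinning the Schwann-like cells of the mixed library held 2 UMIs of Cacna1d in 2 of 38 cells and 1 UMI of Cacna1h. In the near-empty droplets of the mixed library, with under 50 UMIs each, Cacna1c stood at 19.0 CPM, Cacna1d at 0, Cacna1g at 4.00 CPM, Cacna1h at 2.00 CPM, Cacnb2 at 7.99 CPM, Cacnb3 at 16.0 CPM and Cacna2d1 at 30.0 CPM. Among the 6 classes compared, these mixed-library levels above 0 lay at or below the droplet levels: Cacna1c in fibroblast-like and blood endothelial-like cells, Cacna1g in blood endothelial-like cells, Cacnb2 in fibroblast-like and blood endothelial-like cells, Cacnb3 in fibroblast-like and both endothelial-like classes, and Cacna2d1 in both endothelial-like classes and in Schwann-like cells. The share of droplet RNA in the cells was not measured. The Cacna1g level of all mixed muscle-like cells (4.66 CPM) was close to that droplet level, but its Pln/Sorbs2 kind (28.1 CPM) was above it. Intervals here and in the plots cover counting error only.

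**Figure D3:**
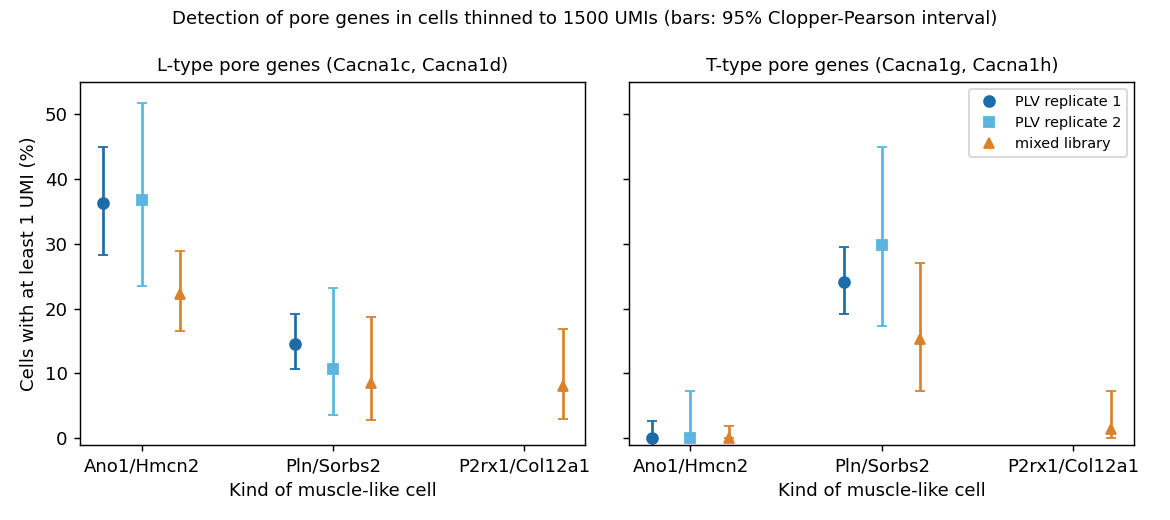
Share of cells, in percent, with at least 1 UMI of an L-type pore gene (left) or a T-type pore gene (right) after thinning to 1500 UMIs per cell, by kind of muscle-like cell, with 1 point per library and 95% Clopper-Pearson bars. The L-type share is higher in the Ano1/Hmcn2 than in the Pln/Sorbs2 kind of each library, and the T-type share is 0 in the former and 15.3% to 29.8% in the latter.

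The 2 PLV libraries were then set against the mixed library within muscle-like, fibroblast-like, pericyte-like and both endothelial-like classes. Schwann-like cells were not compared in this way. Between the PLV and mixed libraries the vessels sampled, the digestion, the run, the Cell Ranger version and the mice all change at once and cannot be told apart. Xist, which is transcribed from the inactive X chromosome of females, was counted 6259 and 2099 times in PLV replicates 1 and 2 but 1 time in mixed cells, so the sex of the mice is among these differences. In the test the lone mixed sum is assumed to vary like the PLV sums. In muscle-like cells Cacna1g was higher in the PLV libraries by a log2 difference of 3.21 (SE 0.40, edgeR adjusted p = 2.39e-09), and Cacna1h by 1.78 (SE 0.31, edgeR adjusted p = 7.91e-06), both in 2 of 2 PLV libraries. These were 2 of the 6 genes tested, beside 7.01% of 10825 genes called higher, and 0 were called lower beside 7.75%. The median log2 difference of the 6 was 0.41. Cacna1c (0.40, SE 0.25), Cacnb2 (0.41, SE 0.27), Cacnb3 (-0.50, SE 0.27) and Cacna2d1 (-0.06, SE 0.24) did not pass (edgeR adjusted p from 0.217 to 0.910). With 1 mixed library these p-values rest on the spread that edgeR shares across genes, and the mixed side has no spread of its own. DESeq2 called Cacna1g but not Cacna1h (DESeq2 adjusted p = 0.0999), and 177 genes in all where edgeR called 1598.

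The makeup of the muscle-like class moved with this result. The Pln/Sorbs2 kind, which held all the Cacna1g, made up 67.4% and 45.2% of muscle-like cells in the PLV libraries and 18.0% in the mixed library. Within the Pln/Sorbs2 kind alone the Cacna1g difference was 1.31 (SE 0.42, edgeR adjusted p = 0.0472), 1 call among 5 members tested with 2.1% of all genes called higher. It was not called with DESeq2 (DESeq2 adjusted p = 0.9997), and Cacna1h within this kind differed by 0.53 (SE 0.35, edgeR adjusted p = 0.437). Within the Ano1/Hmcn2 kind edgeR called 0 of 4 members (5.56% of genes called in either direction) and DESeq2 called 0. Of these Cacna1c passed an unadjusted p of 0.05, with a difference of 0.80 (SE 0.28, edgeR adjusted p = 0.0756). The number of all genes called within the Ano1/Hmcn2 kind depended on the setting. It was 485 of 8724 with edgeR at the main setting, 43 of 8724 with DESeq2 and 3 of 8716 with edgeR at Leiden resolution 2. It changed less at the other settings. DESeq2 called few of all genes in this kind, so its 0 says little about the members.

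In the other 4 classes compared, which leave out Schwann-like cells, the members were called nowhere. In fibroblast-like cells edgeR called 0 of 4 (background 11.8%), with Cacnb3 at an unadjusted p under 0.05. In pericyte-like cells it called 0 of 3 (background 2.62%) and in blood endothelial-like cells 0 of 2 (background 2.42%), with none at an unadjusted p under 0.05. In lymphatic endothelial-like cells it called 0 of 1 (background 0.189%), where Cacna2d1 had an unadjusted p under 0.05. DESeq2 called no member in these 4 classes, but it called few of all genes there, so this says little about the members. Whether the PLV and mixed difference itself changed between muscle-like cells and another class was tested too. Set against fibroblast-like cells, edgeR called 1 of 6 members, Cacna1g, whose PLV excess was larger in muscle-like cells (background 3.34%). Set against pericyte-like cells (background 0.0466%), blood endothelial-like cells (background 1.58%) and lymphatic endothelial-like cells (background 1.84%) edgeR called 0 of 6, 0 of 5 and 0 of 4 members. These counts leave out members with 0 UMIs in the other class of all 3 libraries, for which no value can be estimated: Cacna1h in fibroblast-like and both endothelial-like classes, and Cacna1g in the lymphatic one. Cacna1c had an unadjusted p under 0.05 against fibroblast-like cells (log2 difference 2.07, edgeR adjusted p = 0.0577) and, in the other direction, against lymphatic endothelial-like cells (edgeR adjusted p = 0.490). DESeq2 called no member in these 4 comparisons, but it called very few of all genes there, so this says little about the members. It gave no adjusted p for Cacna1g in the fibroblast-like and lymphatic endothelial-like ones.

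**Figure D4:**
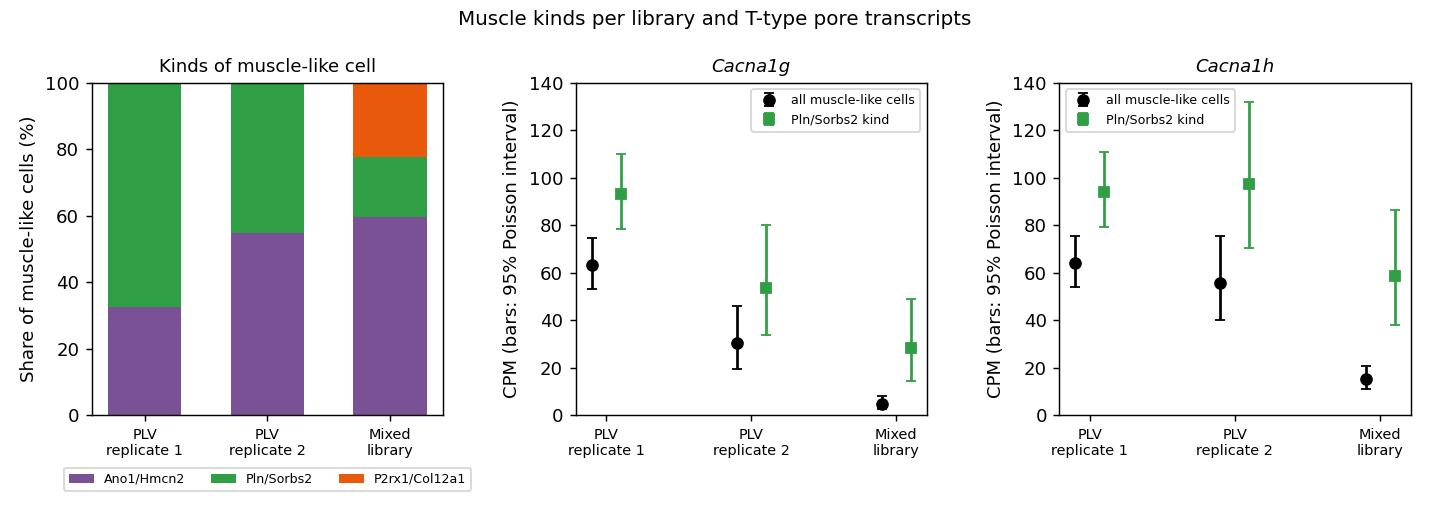
Share of each kind among muscle-like cells in percent (left), and CPM of Cacna1g (middle) and Cacna1h (right) in all muscle-like cells and in the Pln/Sorbs2 kind, per library with 95% exact Poisson bars. The Pln/Sorbs2 share is 67.4% and 45.2% in the PLV libraries and 18.0% in the mixed library, and the mixed library lies lower for Cacna1g in both sets of cells.

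Other calcium channel genes were mostly too low to test. Of 19 listed, 2 were tested between the kinds: Cacna1a, a pore gene best known from nerve terminals, was higher in the Ano1/Hmcn2 kind by 1.92 (SE 0.41, edgeR adjusted p = 0.000900), at 52.9, 46.5 and 28.8 CPM against 17.2, 0 and 7.03 CPM. Cacnb4, a further beta subunit gene, was lower by a log2 difference of 1.76 (SE 0.43, edgeR adjusted p = 0.00333), at 12.5, 3.10 and 6.06 CPM against 31.7, 30.2 and 16.4 CPM. Cacna1e, the R-type pore gene, stood at 35.0, 28.9 and 27.8 CPM in lymphatic endothelial-like cells (80, 27 and 23 UMIs) and at 0 in muscle-like cells of all 3 libraries. In muscle-like cells against lymphatic endothelial-like cells, 2 of 3 tested genes of this list were higher (Cacnb4 and Cacna1a) and 1 lower (Cacna1e, edgeR adjusted p = 1.97e-06), beside 21.7% and 20.6% of all genes.

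Of 18 listed channel regulators, 13 were tested between the kinds, and 3 were higher and 5 lower in the Ano1/Hmcn2 kind (15% and 15.3% of all genes; median -0.11). Rem1 and Rrad encode small GTP-binding proteins known to bind beta subunits and to lower channel activity, and they moved in opposite directions. Rem1 stood at 132, 124 and 108 CPM against 9.26, 11.6 and 28.1 CPM (log2 difference 2.98, edgeR adjusted p = 7.81e-08), and Rrad was lower by 1.25 (edgeR adjusted p = 3.70e-06). The kinase genes Camk2g and Prkaca were lower by 1.14 and 1.46 (edgeR adjusted p = 1.66e-05 and 1.70e-05), Cabp1, a calcium-binding protein gene, was lower by 2.04 (edgeR adjusted p = 7.75e-05), and Camk2d was higher by 0.79 (edgeR adjusted p = 0.00110). Against pericyte-like cells 2 regulators were higher and 1 lower of 13 (6.92% and 5.22% of all genes), and against fibroblast-like cells 8 were higher and 3 lower of 13 (17.3% and 21.5% of all genes).

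Of 12 listed calcium partners, leaving out Ano1 and Pln because they label the kinds, 10 were tested, and 3 were higher and 4 lower in the Ano1/Hmcn2 kind (15% and 15.3% of all genes; median -0.20). Ryr2, the calcium release channel of the sarcoplasmic reticulum, stood at 66.8, 93.1 and 44.7 CPM against 138, 202 and 119 CPM (lower by 1.33, edgeR adjusted p = 5.96e-06). Stim1, the sensor of stored calcium, stood at 271, 285 and 262 CPM against 110, 139 and 124 CPM (higher by 1.00, edgeR adjusted p = 8.03e-05). The sodium-calcium exchanger gene Slc8a1 was lower by 0.96 (edgeR adjusted p = 0.00136), the calcium pump gene Atp2b1 lower by 0.74 (edgeR adjusted p = 0.00145) and the release channel gene Itpr1 lower by 0.52 (edgeR adjusted p = 0.0158), while Mylk, the myosin light chain kinase gene, was higher by 0.53 (edgeR adjusted p = 0.00543). With Ano1 and Pln included again (14 listed), 9 of 13 tested partners were higher and 0 lower in muscle-like than in pericyte-like cells (6.92% and 5.22% of all genes). Against lymphatic endothelial-like cells 10 were higher and 2 lower of 13 (21.7% and 20.6% of all genes).

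The genes with the most similar pattern to each member were ranked by Pearson's r of log2(CPM + 10) over 25 sums of named classes (1 per library and class), which share libraries and depth. For Cacna1c they were Synpo2 (r = 0.99), Lmod1 (0.98) and Mark1 (0.98), of which Synpo2 and Lmod1 are among the markers that named the muscle-like class. For Cacna1g they were Tcap (0.92), Gpr20 (0.91) and Slc38a11 (0.91), and for Cacna1h Xirp1 (0.89), Lrrc10b (0.88) and Gm37800 (0.87). For Cacnb2 they were Jph2 (0.97), Myocd (0.96) and Dgkb (0.95). For Cacnb3 they were Hspb2 (0.96), Cyp7b1 (0.94) and Dmd (0.89), and for Cacna2d1 Adam22 (0.93), Rgma (0.93) and Igfbp5 (0.92). Cacna1d held 45 UMIs over these sums, under the minimum of 100 set for this ranking.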

How the data were processed

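The values deposited by the authors were raw UMI counts for each gene in each barcode, made with Cell Ranger 6.1.2 (PLV) or 4 (mixed), per the file headers; GRCm38 and Seurat are named per the submitters' processing notes. The PLV files were filtered to 2649 and 730 barcodes, and the mixed file held 896360. Barcodes with at least 500 UMIs, 300 genes, at most 15% mitochondrial and 20% haemoglobin UMIs were kept; 10, 3 and 3 predicted doublets were left out, and undetected ones may remain. Clustering was done library by library in scanpy 1.11.5 (2000 variable genes, 50 components, 15 neighbours, Leiden resolution 1). A cluster was named where at least 3 markers were 2-fold above other cells (20 CPM added), by the number of such markers; this ranking and the scoring of kinds were set after clusters were seen, and 9, 103 and 0 cells stayed unnamed. UMIs were summed per library and class (at least 20 cells) and tested with edgeR 4.0.16 (TMM, filterByExpr), threshold 0.05, with DESeq2 1.42.0 as alternative. On simulated data edgeR recovered 90.5% of 200 genes changed 4-fold between muscle-like and fibroblast-like sums (9947 genes), 85.5% between kinds (7507 genes) and 35% for PLV against mixed muscle-like sums (10724 genes). The changed genes were drawn from those expected to average over 20 UMIs per sum. All genes had the same dispersion, and no other differences between sums were simulated except depth. These rates therefore do not give the power for members with fewer UMIs. In the class and kind tests the block takes out library-wide differences, so p-values measure how the differences vary between libraries. In the tests of PLV against mixed the mixed side has no spread of its own. Every member was named; listed genes were named where they passed with at least 10 UMIs, at most 6 per list by adjusted p, and not in every comparison. The members and lists were chosen with earlier results of these data known.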

Additional observations from a re-analysis of the deposited data

Results flagged for a closer look

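The PLV minus mixed difference of Cacna1g was larger in muscle-like than in fibroblast-like cells by a log2 difference of 4.32 (SE 0.74, edgeR adjusted p = 0.000697), by a test of the difference itself over 11741 genes, of which 3.34% were called. The levels behind it were 63.2, 30.5 and 4.66 CPM in muscle-like cells and 9.80, 0 and 9.94 CPM in fibroblast-like cells (PLV replicate 1, then PLV replicate 2, then mixed). The fibroblast-like levels rest on 18, 0 and 21 UMIs. In both classes the mixed side is 1 library and has no spread of its own. DESeq2 gave 5.05 with an unadjusted p of 0.0143 and no adjusted p for this gene. The makeup of the muscle-like class, with 67.4%, 45.2% and 18.0% of cells in the Pln/Sorbs2 kind, moved with it, and its part in this difference was not tested.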

How the results depend on the processing

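Of 590 recomputed values of single members, 548 kept their direction and their side of the threshold, 32 were no longer called, 3 were newly called and 7 turned sign; without DESeq2 498 of 529 kept both. The counts of members called that moved by over 1.5 times are these. Against pericyte-like cells the count of 3 became 1 with at most 10% mitochondrial UMIs, 0 at Leiden resolution 2, 1 with no library block and 0 to 2 with 1 library left out (0 without PLV replicate 1). Of all genes, 726 of 10497 were called higher at the main setting and 607 of 10437 with at most 10% mitochondrial UMIs. They were 458 of 10464 at Leiden resolution 2, 446 of 10497 with no library block and 328 of 10065 without PLV replicate 1. Against Schwann-like cells the count of 5 became 3 with DESeq2, 3 at Leiden resolution 0.5 and 3 to 5 with 1 library left out. In that comparison 1999 of 10497 genes were called higher at the main setting and 1713 of 10497 with DESeq2. They were 1776 of 10693 at Leiden resolution 0.5 and 1066 of 10065 without PLV replicate 1. For PLV against mixed muscle-like cells Cacna1h was no longer called with DESeq2. Calls among all genes in that comparison fell several-fold with DESeq2, with no filter on low counts and at Leiden resolution 0.5. Within the Pln/Sorbs2 kind the call of Cacna1g became 0 calls with DESeq2, with no filter on low counts, with at most 10% mitochondrial UMIs and at Leiden resolution 2 (adjusted p 0.9997 with DESeq2 and 0.0773, 0.320 and 0.255 with edgeR). The share of all genes called higher in that kind also fell at each of these settings. The mean CPM of muscle-like cells moved for Cacna1d to 3.53 with at least 1000 UMIs per cell and to 1.22 after thinning, for Cacnb3 to 46.9 after thinning and 47.1 as a mean per cell, and for Cacna2d1 to 238 as a mean per cell.

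Signs turned for values that were not called: Cacna1g against pericyte-like cells (-0.68 without PLV replicate 1, and 8.10 without PLV replicate 2, where that class held 0 UMIs), Cacnb3 against pericyte-like cells (0.014 with no filter, 0.031 with at most 10% mitochondrial UMIs, 0.025 at Leiden resolution 2), Cacnb3 against Schwann-like cells (-0.097 without PLV replicate 1 to 0.85 without the mixed library), Cacna1c in PLV against mixed blood endothelial-like cells (-0.0082 with DESeq2), and Cacnb2 in the Ano1/Hmcn2 kind (-0.073 at Leiden resolution 2). Newly called were Cacna1g against fibroblast-like cells, as given above and with no filter (edgeR adjusted p = 0.00546), and Cacnb3 in PLV against mixed fibroblast-like cells with at least 1000 UMIs (-1.69, edgeR adjusted p = 0.0334). The causes were not tested. No paired analysis was possible because the PLV and mixed libraries share fewer than 2 replicate numbers. PLV against mixed with a PLV library left out has 1 library a side and no test. At Leiden resolution 0.5 there was no pericyte-like class in the PLV libraries and no Pln/Sorbs2 cluster in the mixed library, so kinds then rest on the 2 PLV libraries. Leaving out cells with Acta2 and Myh11 left fewer than 20 pericyte-like cells. The alternatives that leave out cells and the tests within kinds were chosen after seeing the data. Low counts limit Cacna1d, at most 8 UMIs in any cluster, and the T-type genes outside muscle-like cells, at most 21 UMIs in any class sum.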

Other observations

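Cacna1d was also counted in macrophage-like cells, a class outside the comparisons above. These held 8 UMIs in PLV replicate 1 (24.3 CPM, 86 cells) and 6 in the mixed library (33.7 CPM, 31 cells), while muscle-like cells of the same libraries held 3.14 and 1.17 CPM. In PLV replicate 2, which had no macrophage-like class, an unnamed cluster of 37 cells led by Cd74, H2-Aa and H2-Ab1 held 2 UMIs (8.64 CPM), and a fibroblast-like cluster held 6 (18.1 CPM). The counts are low, and no test was made.

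Outside muscle-like cells Cacna1g had its highest level in the pericyte-like cells of PLV replicate 2, as given above (65.4 CPM). Of its 18 UMIs in fibroblast-like cells of PLV replicate 1, 16 lay in a cluster of 90 cells led by Myoc, Gpx3 and Ccdc80, at 28.5 CPM (95% exact Poisson interval 16.3 to 46.3). This overlapped the interval of a cluster led by Apod, Smoc2 and Gpc3 (11.1 CPM, 0.280 to 61.6). The remaining fibroblast-like clusters there held 2.27 CPM (0.0574 to 12.6) and 0 CPM (0 to 4.95). In the mixed library 14 of 21 lay in 136 fibroblast-like cells led by Col4a4, Tspan11 and Nkain4, at 14.8 CPM (8.07 to 24.8), which overlapped the other fibroblast-like clusters there (8.20 CPM, and 4.43 CPM with an interval of 0.913 to 12.9). A blood endothelial-like cluster of PLV replicate 1 led by Sema3g, Cytl1 and Gja5 held 6 UMIs of Cacna1g (16.3 CPM) and 32.7 CPM of Cacna1c. These clusters were singled out after their values were seen and have no test.

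Small clusters named for other cell types held Cacna1c together with muscle transcripts. A keratinocyte-like cluster of 100 cells in PLV replicate 1 had 74.3 CPM of Cacna1c, 105 CPM of Cacna2d1 and 16.9 CPM of Cacna1g (5 UMIs) beside 3735 CPM of Acta2 and 2090 CPM of Rgs5. A cluster of 38 cells in the mixed library, named T or NK-like, had 143 CPM of Cacna1c, 333 CPM of Cacna2d1 and 79.3 CPM of Cacnb3. It held 3868 CPM of Acta2 and 7816 CPM of Myh11, beside 14843 and 7249 CPM in the muscle-like cells of that library. Hmcn2 stood at 412 CPM, Ano1 at 190 CPM and Pln at 0 in it, so its name is doubtful. Its cells were not counted among the muscle-like cells or in the shares of kinds. The part of muscle transcripts in the calcium channel levels of these clusters was not tested.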
